A study of Homo sapiens with 4 samples.

Results

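The genes of pyruvate entry into mitochondria, the tricarboxylic acid (TCA) cycle and the pentose phosphate pathway were examined in U251 cells, an established human glioblastoma (GBM) line, after knockdown of PRMT3. The genes were taken by symbol from a list of 38 and all 38 were found in the table of 15575 genes. They fell into 4 role groups, with 10 genes of pyruvate entry, 14 of the TCA cycle, 7 of malate and transamination reactions and 7 of the pentose phosphate pathway. Ctrl cells (genotype Ctrl, with pGreen in the sample titles) had received a control shRNA, and PRMT3-KD cells (genotype PRMT3 knockdown) an shRNA against PRMT3, an arginine methyltransferase. The labels do not name the hairpin. Both came by lentivirus, so both groups share transduction, and RNA was taken at 72 h. Each group had 2 libraries of total RNA. The labels do not say whether the 2 libraries of a group came from separate cultures, so p-values measure the spread between these libraries, which may be technical. The study asked whether loss of PRMT3 alters glucose metabolism in GBM cells, and the genes below take up the carbon that leaves glycolysis.

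As background, the mitochondrial pyruvate carrier moves pyruvate into the matrix, where the pyruvate dehydrogenase complex turns it into acetyl-CoA and pyruvate carboxylase turns it into oxaloacetate. Citrate synthase joins acetyl-CoA and oxaloacetate, and the TCA cycle then oxidizes the citrate and feeds electrons to the respiratory chain. The pentose phosphate pathway branches from glycolysis in the cytosol, makes NADPH in its oxidative arm and ribose phosphate for nucleotides in its non-oxidative arm, and both outputs are in demand in dividing cells.

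The changes were few and went both ways. Citrate synthase (CS) and 6-phosphogluconate dehydrogenase (PGD) were lower in PRMT3-KD cells, and the pyruvate dehydrogenase subunit PDHB, the pyruvate dehydrogenase phosphatase PDP2 and ribose-5-phosphate isomerase (RPIA) were higher. These 5 moved by more than 1.5-fold with an adjusted p below 0.05 in edgeR's quasi-likelihood test (Benjamini-Hochberg adjustment over 13172 genes), which is the threshold used below. They were 13.5% of the 37 members tested, against 10.9% of all genes tested. The 2 lower genes were 5.41% of the members, against 5.97% of all genes, and the 3 higher genes were 8.11%, against 4.97%. Without the fold limit 8 members passed (21.6%, against 17.3% of all genes), with DLD and SUCLA2 higher and TALDO1 lower in addition. In all genes tested 8.91% were lower and 8.39% higher by this criterion. The share of members called lower was thus near that of all genes, and the larger share called higher rests on 3 genes. The median log2 fold change of the members was 0.09, against 0.0055 over all genes tested, and 14 of the 37 were below 0. ME3 did not pass the filter on low counts and has no test.

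The promoters of the 5 genes past the threshold are shown because these are the members past both limits of the threshold. Each is the 250 bases before the RefSeq start (GRCh38.p14), 5′ to 3′ on the strand of the gene, and capitals mark ACGTG or GCGTG on either strand, the core letters of the sequence that HIF factors bind. They lie at chr12:56300331-56300580 (minus strand), chr1:10398814-10399063 (plus strand), chr3:58433833-58434082 (minus strand), chr16:66880265-66880514 (plus strand) and chr2:88691423-88691672 (plus strand).
CS: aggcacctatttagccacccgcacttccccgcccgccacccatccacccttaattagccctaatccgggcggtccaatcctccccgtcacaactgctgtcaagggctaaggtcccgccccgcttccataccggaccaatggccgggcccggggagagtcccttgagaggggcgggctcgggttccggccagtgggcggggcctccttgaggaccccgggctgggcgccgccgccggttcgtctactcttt
PGD: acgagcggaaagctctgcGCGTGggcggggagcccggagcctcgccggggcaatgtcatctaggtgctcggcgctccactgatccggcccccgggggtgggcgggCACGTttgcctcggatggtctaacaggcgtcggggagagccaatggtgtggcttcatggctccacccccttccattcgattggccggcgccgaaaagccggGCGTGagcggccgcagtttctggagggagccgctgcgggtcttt
PDHB: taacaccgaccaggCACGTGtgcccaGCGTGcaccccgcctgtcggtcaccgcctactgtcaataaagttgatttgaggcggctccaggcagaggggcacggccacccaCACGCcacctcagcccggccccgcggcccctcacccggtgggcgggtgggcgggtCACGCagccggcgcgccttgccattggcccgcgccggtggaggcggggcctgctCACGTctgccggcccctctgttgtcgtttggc
PDP2: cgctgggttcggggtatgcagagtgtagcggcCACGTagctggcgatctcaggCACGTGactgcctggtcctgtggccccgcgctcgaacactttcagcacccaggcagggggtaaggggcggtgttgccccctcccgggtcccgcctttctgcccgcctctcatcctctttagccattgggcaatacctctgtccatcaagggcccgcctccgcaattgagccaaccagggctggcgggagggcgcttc
RPIA: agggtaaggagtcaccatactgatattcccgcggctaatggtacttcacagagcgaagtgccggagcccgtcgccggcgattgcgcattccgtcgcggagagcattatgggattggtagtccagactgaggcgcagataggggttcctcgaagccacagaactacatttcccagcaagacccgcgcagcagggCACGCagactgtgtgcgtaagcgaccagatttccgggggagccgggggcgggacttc

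The CS promoter held 0 copies of either core and the PGD promoter 3, while those of PDHB, PDP2 and RPIA held 6, 3 and 1, where CACGTG counts on both strands. A promoter sequence was found for 36 of the 38 members, and 23 of these held at least 1 core (63.9%, against 55% of the promoters of 11352 genes in the table). CCAAT, another common promoter element, was searched on both strands and found in 20 of the 36 (55.6%, against 34.8%), and in all 5 promoters above. A match of these letters is a description of the window and not a binding site.

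Counts were scaled by edgeR's TMM factors and are given as CPM (counts relative to the scaled library size). PRMT3 had 535 counts in each Ctrl library and 77 and 45 counts in PRMT3-KD libraries 1 and 2, so the labels hold for the targeted gene. HIF1A, the hypoxia factor the study follows, went from 733 ± 6.62 to 242 ± 65.8 CPM (SD, n = 2 each). Library totals were 24804250 to 29756313 counts. The 2 Ctrl libraries were nearly as close as counting error allows (chi-square divided by its degrees of freedom 1.41), unlike the 2 PRMT3-KD libraries (66). Of 9 glial markers all were in the table, but CHI3L1 had 2 counts in Ctrl library 2 and 0 in the others, and the summed level, most of it VIM and CD44, was 7658 to 8742 CPM. Of the 8 tested, 1 was called lower (12.5%, against 5.97% of all genes). This was SOX9 (log2 fold change -0.65, adjusted p = 0.0215, edgeR). GFAP went from 13.1 and 14.3 CPM in Ctrl to 1.26 and 5.39 CPM in PRMT3-KD libraries (adjusted p = 0.0958, edgeR). NES was at 459 CPM in PRMT3-KD library 1 and 826 CPM in library 2. All 3 were picked after their values were seen. By fitted log2 fold change 5 of the 8 were below 0. The 3 above 0 were EGFR (0.15), S100B (0.19) and CD44 (0.0011), and none of these passed the test. Of 15 markers of blood, neuronal, endothelial and epithelial cells, 8 were not in the table and the others summed to 26.8 to 28.4 CPM in 3 libraries and 48.4 CPM in PRMT3-KD library 2, where CDH5 alone was at 25.4 CPM. All 20 genes of a proliferation list were below both Ctrl libraries in both PRMT3-KD libraries, against 33.8% of all genes. Their median log2 fold change was -0.82, and 10 of them passed the threshold as lower (50%, against 5.97% of all genes). The part of this difference in proliferation genes in the results below was not tested. In bulk RNA, fewer cells that express a gene and less of its RNA per cell cannot be told apart.

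**Figure D1:**
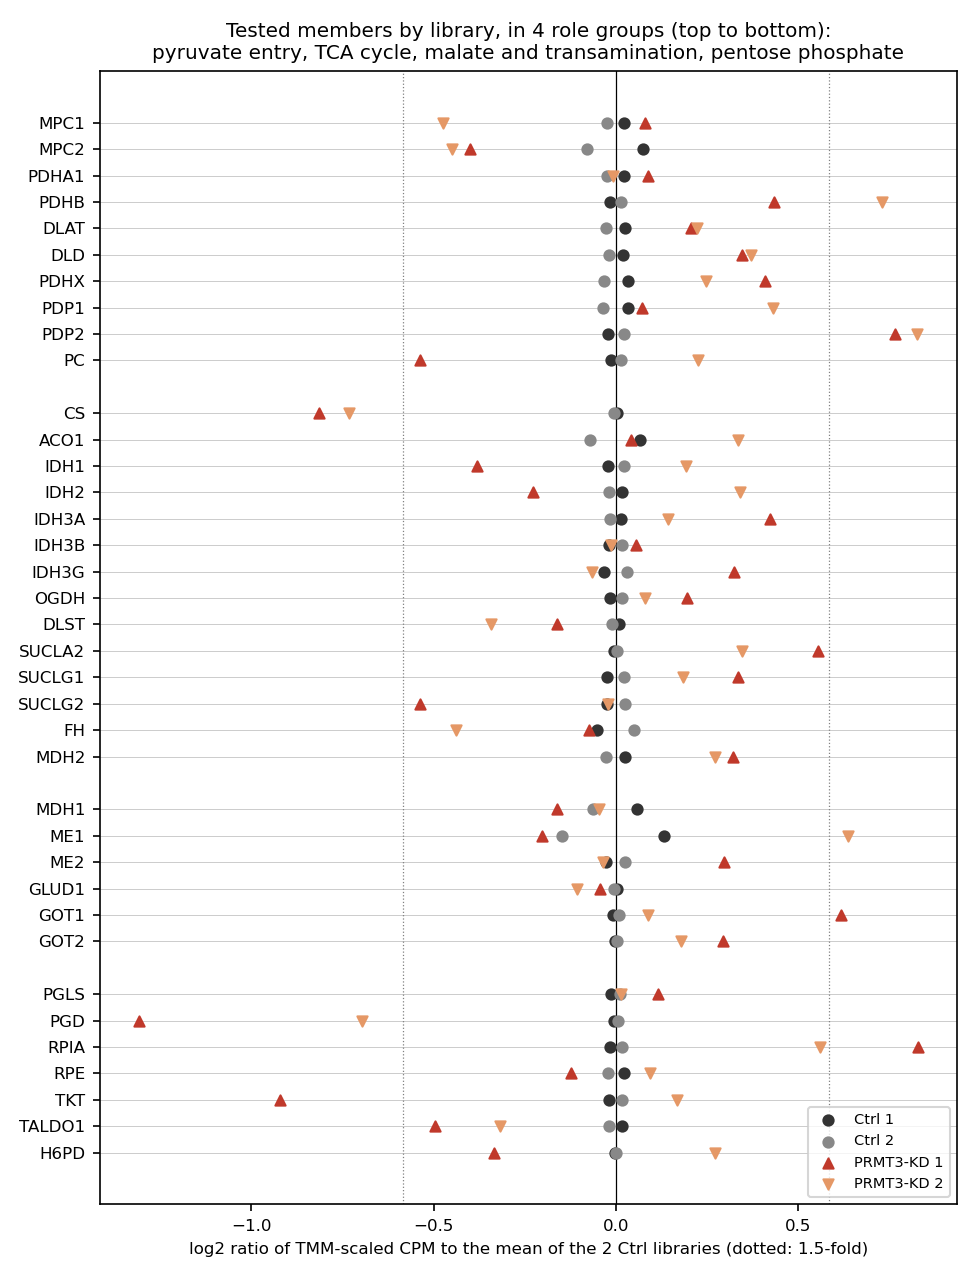
Log2 ratio of each tested member's CPM to the mean of the 2 Ctrl libraries (x axis), by gene (y axis, 4 role groups from top to bottom), with circles for Ctrl and triangles for PRMT3-KD libraries. The Ctrl circles stay near 0, both triangles of CS and PGD lie far to the left, and the 2 triangles of TKT lie on opposite sides of the Ctrl circles.

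In the pyruvate entry group, 2 of 10 genes passed the threshold, both higher (20%, against 4.97% of all genes called higher and 10.9% called either way). This share rests on 2 genes. PDHB (ENSG00000168291, chromosome 3 of GRCh37 from 58413357 to 58419584) encodes the beta subunit of the E1 enzyme of the pyruvate dehydrogenase complex. It was at 100.7 and 102.8 CPM in the Ctrl libraries and at 137 and 169 CPM in PRMT3-KD libraries 1 and 2. The groups did not overlap, and the 2 PRMT3-KD libraries differed more from each other than the 2 Ctrl libraries did. The log2 fold change was 0.59 (standard error, SE, 0.120, 95% interval 0.27 to 0.91, adjusted p = 0.0421, edgeR), which lies at the limit of 1.5-fold. It was under 1.5-fold with library totals only (0.55), with limma-voom and group weights (0.584), with the replicate number as a block (0.58) and without PRMT3-KD library 2 (0.43). Exons of PDHB overlap those of a gene on the other strand, and strand use is not given, which makes its count uncertain.

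PDP2 (ENSG00000172840, chromosome 16 from 66912492 to 66929657) encodes one of the phosphatases that reactivate the pyruvate dehydrogenase complex by removing phosphate from E1. Its level was 23.6 and 24.4 CPM in Ctrl and 40.8 and 42.6 CPM in PRMT3-KD libraries. Both PRMT3-KD values were high and close together. The log2 fold change of 0.80 (SE 0.0852, adjusted p = 0.0182, edgeR) was the largest increase among the members tested. PDP1, the other phosphatase, was at 89.7 and 85.5 CPM in Ctrl and at 92.1 and 118 CPM in PRMT3-KD libraries, with a log2 fold change of 0.26 (95% interval -0.11 to 0.64, adjusted p = 0.246, edgeR). The count ratio of PDP2 over PDP1, which no scaling of a library can alter, was 0.263 and 0.285 in Ctrl and 0.443 and 0.360 in PRMT3-KD libraries. PDP2 was thus a larger part of the phosphatase RNA in both PRMT3-KD libraries.

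The other subunits of the complex moved less. DLD, the E3 subunit that this complex shares with the 2-oxoglutarate dehydrogenase complex, was at 133 and 129.6 CPM in Ctrl and 167 and 170.1 CPM in PRMT3-KD libraries. This was a log2 fold change of 0.36 (SE 0.0679, adjusted p = 0.0369, edgeR), under 1.5-fold, and the adjusted p was 0.063 with library totals only and 0.0923 with the replicate number as a block. DLAT, the E2 subunit, and PDHX, the protein that binds E3 to the core, were also above both Ctrl libraries in both PRMT3-KD libraries. On the log2 scale they differed by 0.22 and 0.33 (adjusted p = 0.129 and 0.0842, edgeR). PDHA1, the alpha subunit that pairs with PDHB in E1, was at 89.1 and 86.3 CPM in Ctrl and 93.2 and 87.2 CPM in PRMT3-KD libraries, with an interval of -0.16 to 0.25 for the log2 fold change. PDHA1 has 1 annotated pseudogene, which makes its count uncertain. The count ratio of PDHB over PDHA1 was 1.13 and 1.19 in Ctrl and 1.47 and 1.93 in PRMT3-KD libraries. The RNAs of these E1 partners thus changed unequally in both PRMT3-KD libraries. Each count ratio given here has a called gene on top, so it largely restates that call and is no separate support. Ratios of TKT over TALDO1, MPC1 over MPC2 and GOT1 over GOT2 were also computed and overlapped between the groups. Those of SUCLA2 over SUCLG2 and IDH1 over IDH2, given below as shares, did not overlap.

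The pyruvate carrier subunits and pyruvate carboxylase did not pass the test. MPC2 was at 30.8 and 27.7 CPM in Ctrl and 22.2 and 21.4 CPM in PRMT3-KD libraries, a log2 fold change of -0.42 (95% interval -0.70 to -0.15, adjusted p = 0.056, edgeR). MPC1, its partner in the carrier, was at 17.5 and 16.9 CPM in Ctrl, 18.2 CPM in PRMT3-KD library 1 and 12.4 CPM in library 2. PC, which refills the cycle with oxaloacetate, went to 19.6 CPM in PRMT3-KD library 1 and 33.3 CPM in library 2, from 28.2 and 28.7 CPM in Ctrl. For MPC1 and PC the 2 PRMT3-KD libraries thus lay on opposite sides of the Ctrl values.

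In the TCA cycle, 1 of 14 genes passed the threshold (7.14%, against 10.9% of all genes). CS (ENSG00000062485, chromosome 12 from 56665483 to 56694175), the enzyme that commits acetyl-CoA to the cycle, was at 217 and 216 CPM in Ctrl and 123 and 130.2 CPM in PRMT3-KD libraries. The 2 PRMT3-KD libraries were close to each other and far below both Ctrl libraries. CS went from 216 ± 0.884 to 127 ± 5.09 CPM (mean ± SD of 2 libraries), with a log2 fold change of -0.77 (SE 0.0717, adjusted p = 0.016, edgeR), or 58.5% of the Ctrl mean. Exons of CS overlap those of a gene on the same strand (ENSG00000144785) and of an antisense gene, and the annotation holds 2 CS pseudogenes, so the counting may have divided some of its reads.

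MDH2, the mitochondrial malate dehydrogenase that supplies oxaloacetate to CS, went the other way without passing the test. It was at 276 and 266 CPM in Ctrl and 340 and 328 CPM in PRMT3-KD libraries, a log2 fold change of 0.30 (95% interval 0.11 to 0.48, adjusted p = 0.0541, edgeR). The count ratio of CS over MDH2 was 0.785 and 0.809 in Ctrl and 0.362 and 0.397 in PRMT3-KD libraries. The ratio was thus lower in both PRMT3-KD libraries, by similar amounts.

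SUCLA2, the ATP-forming subunit of succinyl-CoA synthetase, was at 45.5 and 45.8 CPM in Ctrl and 67.1 and 58.1 CPM in PRMT3-KD libraries. It had a log2 fold change of 0.45 (SE 0.1005, adjusted p = 0.049, edgeR), under 1.5-fold, and the adjusted p was 0.1 with library totals only and 0.0712 with the block. SUCLA2 has 3 annotated pseudogenes, which make its count uncertain, and SUCLG2, given below, has 2. SUCLG1, the subunit common to both forms of the enzyme, had a log2 fold change of 0.26 (adjusted p = 0.116, edgeR). SUCLG2, the GTP-forming partner, was at 50.1 and 51.8 CPM in Ctrl and at 35.1 and 50.2 CPM in PRMT3-KD libraries, so that library 1 alone stood well below Ctrl. Per transcript length, SUCLA2 made up 50.3% and 49.6% of the SUCLA2 and SUCLG2 total in Ctrl and 68% and 56.3% in PRMT3-KD libraries. With the length of all exons together the shares were 24% and 23.5% in Ctrl and 39.9% and 28.7% in PRMT3-KD libraries. By either length the share of the ATP-forming subunit was higher in both PRMT3-KD libraries, by unequal amounts.

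The 3 subunits of the NAD-linked isocitrate dehydrogenase, IDH3A, IDH3B and IDH3G, were at 0.29, 0.02 and 0.14 on the log2 fold change scale (adjusted p = 0.15, 0.856 and 0.5304, edgeR). IDH3A, the catalytic subunit, was at 90.9 and 89 CPM in Ctrl and 120.6 and 99.4 CPM in PRMT3-KD libraries. OGDH and DLST, the E1 and E2 subunits of the 2-oxoglutarate dehydrogenase complex, were at 0.14 and -0.25 on that scale (adjusted p = 0.264 and 0.129, edgeR). FH, which hydrates fumarate, was at 86.1 and 92.2 CPM in Ctrl and 84.7 and 65.8 CPM in PRMT3-KD libraries. None of these 6 genes passed the test with edgeR, and the intervals reached from -0.63 for FH to 0.60 for IDH3A.

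ACO1, the cytosolic aconitase that also acts as an iron sensor, and the NADP-linked isocitrate dehydrogenases IDH1 (cytosol) and IDH2 (mitochondria) did not pass the test either. IDH1 was at 60.1 and 61.95 CPM in Ctrl, 46.9 CPM in PRMT3-KD library 1 and 69.7 CPM in library 2. IDH2 was at 49 and 47.8 CPM in Ctrl, 41.4 CPM in PRMT3-KD library 1 and 61.4 CPM in library 2. Both genes were low in library 1 and high in library 2, and IDH1 made up 56.5% and 56.6% of their total per transcript length in the PRMT3-KD libraries, against 58.5% and 59.8% in Ctrl. With the length of all exons together, a choice made after seeing the data, IDH1 made up 42.1% and 43.5% in Ctrl and 40.2% and 40.3% in PRMT3-KD libraries, so which of the 2 is more abundant turns with the length used.

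Of the 7 malate and transamination genes, 6 were tested and 0 had an adjusted p under 0.05 with edgeR, against 17.3% of all genes. At an unadjusted p under 0.05 there was 1 (16.7%, against 37.6% of all genes). GOT2, the mitochondrial aspartate aminotransferase, was at 199 and 200.1 CPM in Ctrl and 245 and 226 CPM in PRMT3-KD libraries, a log2 fold change of 0.24 (unadjusted p = 0.0298, adjusted p = 0.0979, edgeR). GOT2 has 6 annotated pseudogenes, which make its count uncertain. GOT1, its cytosolic counterpart, was at 53.2 and 53.8 CPM in Ctrl, 82.1 CPM in PRMT3-KD library 1 and 56.9 CPM in library 2. The value of library 1 stood far above the rest, and the log2 fold change of 0.38 had an interval of -0.13 to 0.89. GLUD1, which turns glutamate into 2-oxoglutarate, was at 147 to 148 CPM in Ctrl and at 143 and 137 CPM in PRMT3-KD libraries, and 6 annotated pseudogenes make its count uncertain. MDH1, the cytosolic malate dehydrogenase, had a log2 fold change of -0.10 (95% interval -0.34 to 0.13). Among the malic enzymes, which turn malate into pyruvate, ME2 was nearly the only one expressed, with 91.4% to 94.3% of their total per transcript length in the 4 libraries. ME1 had 8 to 16 counts and ME3 had 4 to 14 counts per library, too few to compare.

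**Figure D2:**
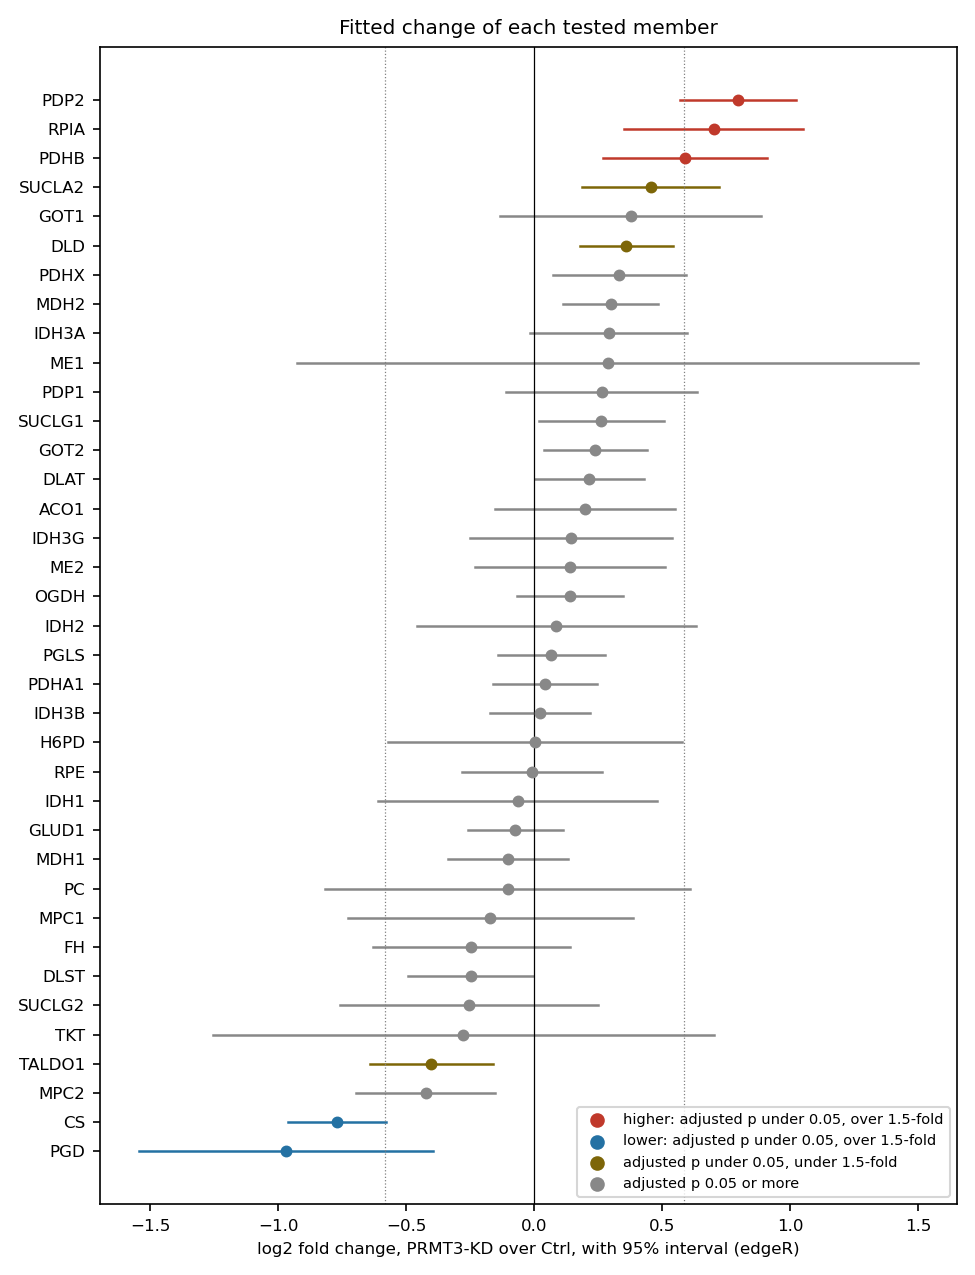
Log2 fold change of PRMT3-KD over Ctrl (x axis) with its 95% interval from edgeR for the 37 tested members (y axis, in order of the fold change). Colours mark the 3 members called higher, the 2 called lower and the 3 with an adjusted p under 0.05 but under 1.5-fold, and most other intervals span 0.

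The pentose phosphate group held 1 lower and 1 higher call among its 7 genes (14.3% each, against 5.97% and 4.97% of all genes). PGD (ENSG00000142657, chromosome 1 from 10458649 to 10480568), which makes NADPH and ribulose 5-phosphate in the last step of the oxidative arm, was at 206 and 208 CPM in Ctrl. It was at 83.6 CPM in PRMT3-KD library 1 and 128 CPM in library 2. Both PRMT3-KD values were low, and library 1 was much the lower. PGD went from 207 ± 1.04 to 106 ± 31.2 CPM (mean ± SD of 2 libraries), with a log2 fold change of -0.97 (SE 0.216, 95% interval -1.55 to -0.40, adjusted p = 0.0492, edgeR), the largest decrease among the members tested. The adjusted p lay at the threshold and was 0.0518 with DESeq2's size factors in edgeR. The log2 fold change was -1.31 without PRMT3-KD library 2 and -0.69 without library 1. PGD has 1 annotated pseudogene, which makes its count uncertain.

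PGLS, the enzyme just before PGD, was at 58.5 and 59.5 CPM in Ctrl and 64 and 59.6 CPM in PRMT3-KD libraries (95% interval of the log2 fold change -0.14 to 0.28). The count ratio of PGD over PGLS was 3.53 and 3.50 in Ctrl and 1.31 and 2.14 in PRMT3-KD libraries. H6PD, which carries out the first oxidative steps inside the endoplasmic reticulum, was at 42.6 and 42.7 CPM in Ctrl, 33.8 CPM in PRMT3-KD library 1 and 51.5 CPM in library 2. Of these 3 oxidative genes, PGD alone lay below Ctrl in both PRMT3-KD libraries.

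RPIA (ENSG00000153574, chromosome 2 from 88991191 to 89050446), which makes ribose 5-phosphate, was at 13.4 and 13.7 CPM in Ctrl and 24 and 19.9 CPM in PRMT3-KD libraries. Both PRMT3-KD values were above both Ctrl values, with a log2 fold change of 0.70 (SE 0.132, adjusted p = 0.0365, edgeR). The adjusted p was 0.0634 with library totals only, and the change was under 1.5-fold without PRMT3-KD library 1 (0.56). RPE, the epimerase that competes for the same substrate, had a log2 fold change of -0.01 (95% interval -0.28 to 0.26), and 6 annotated pseudogenes make its count uncertain. RPIA has 1 annotated pseudogene, with the same limit. The count ratio of RPIA over RPE was 0.224 and 0.237 in Ctrl and 0.446 and 0.318 in PRMT3-KD libraries.

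Transketolase (TKT) and transaldolase (TALDO1) link the pathway back to glycolysis. TALDO1 was at 149 and 145 CPM in Ctrl and 104 and 118 CPM in PRMT3-KD libraries, a log2 fold change of -0.40 (SE 0.090, adjusted p = 0.0498, edgeR), under 1.5-fold and at the threshold. With DESeq2's size factors in edgeR its adjusted p was 0.0533, and with the block it was 0.0819. TKT was at 1395 and 1429 CPM in Ctrl, 745 CPM in PRMT3-KD library 1 and 1585 CPM in library 2. Library 1 was thus far below and library 2 above Ctrl, and the log2 difference of 1.09 between them was the widest of the members tested. The fitted log2 fold change of TKT, -0.28, had an interval of -1.26 to 0.70 (adjusted p = 0.624, edgeR), so a change in either direction was not detectable with these libraries. Without PRMT3-KD library 2 it was -0.93 and without library 1 it was 0.17.

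**Figure D3:**
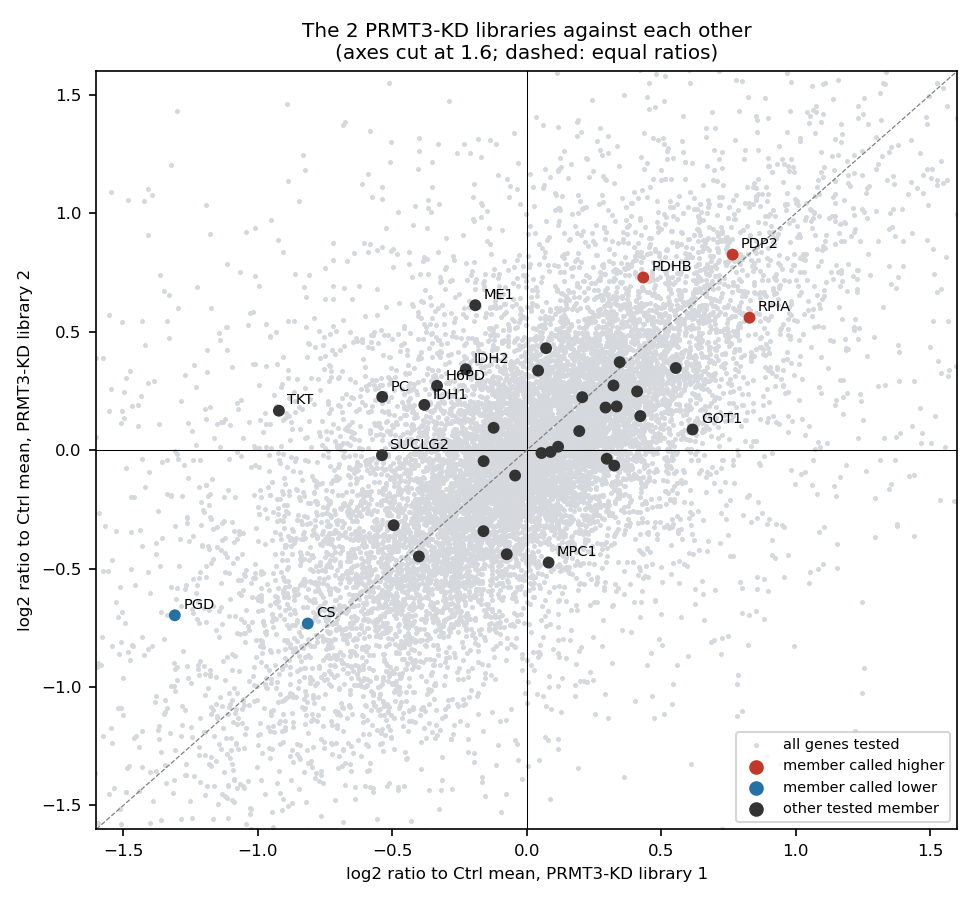
Log2 ratio to the Ctrl mean in PRMT3-KD library 1 (x axis) and library 2 (y axis) for all genes tested (grey) and the members (large points), with both axes ending at 1.6. CS and PDP2 lie near the dashed line of equal ratios, PDHB lies higher in library 2 and RPIA higher in library 1. PGD lies lower in library 1, and TKT lies well below 0 in library 1 and above 0 in library 2.

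The 2 PRMT3-KD libraries lay further apart than the 2 Ctrl libraries. The absolute log2 difference between the 2 PRMT3-KD libraries had a median of 0.218 over the members, against 0.0388 between the 2 Ctrl libraries. Over all genes tested the same medians were 0.238 and 0.0532. In 10 of the 37 members (27%, against 19.5% of all genes) 1 PRMT3-KD library lay above and the other below both Ctrl libraries. TKT, H6PD, PC, IDH1, IDH2, ME1 and RPE were low in library 1 and high in library 2, and MPC1, IDH3G and ME2 the reverse. A further 15 members (40.5%, against 33.3% of all genes) were above both Ctrl libraries in both PRMT3-KD libraries, and 7 (18.9%, against 33.8%) were below. With 2 libraries against 2, the smallest two-sided p of an exact permutation test is 0.333, so the p-values come from the fit across all genes. With either Ctrl library left out, the spread rests on the 2 PRMT3-KD libraries, and edgeR then called 0 genes of the whole table, with 1842 and 1868 at an unadjusted p under 0.05, of which 5 were members each time.

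The order of the levels is given per length of the canonical transcript, as TPM (counts per length, scaled to a fixed total in each library). TKT had the highest level, with 1197 and 1229 TPM in Ctrl and 647 and 1325 TPM in PRMT3-KD libraries. MDH2 and TALDO1 followed with 322 and 316 TPM on average in Ctrl, closer to each other than the 2 Ctrl values of MDH2, and then PGD with 235 and GOT2 with 212 TPM. CS had rank 6 in Ctrl at 191 TPM and rank 12 in PRMT3-KD at 111 TPM, and PDHB went from rank 9 (174 TPM) to rank 3 (259 TPM). With lengths of all exons together PDHB had rank 12 and CS rank 7 in Ctrl, and TKT and MDH2 stayed at the top. The subunits of the pyruvate dehydrogenase complex were at 174 (PDHB), 95.6 (DLD), 67.4 (PDHA1), 35.2 (PDHX) and 24.2 TPM (DLAT) in Ctrl. PDP2 and ME2 were the lowest of the well-expressed members at 8.83 and 8.57 TPM in Ctrl, and ME1 and ME3 were under 1 TPM.

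**Figure D4:**
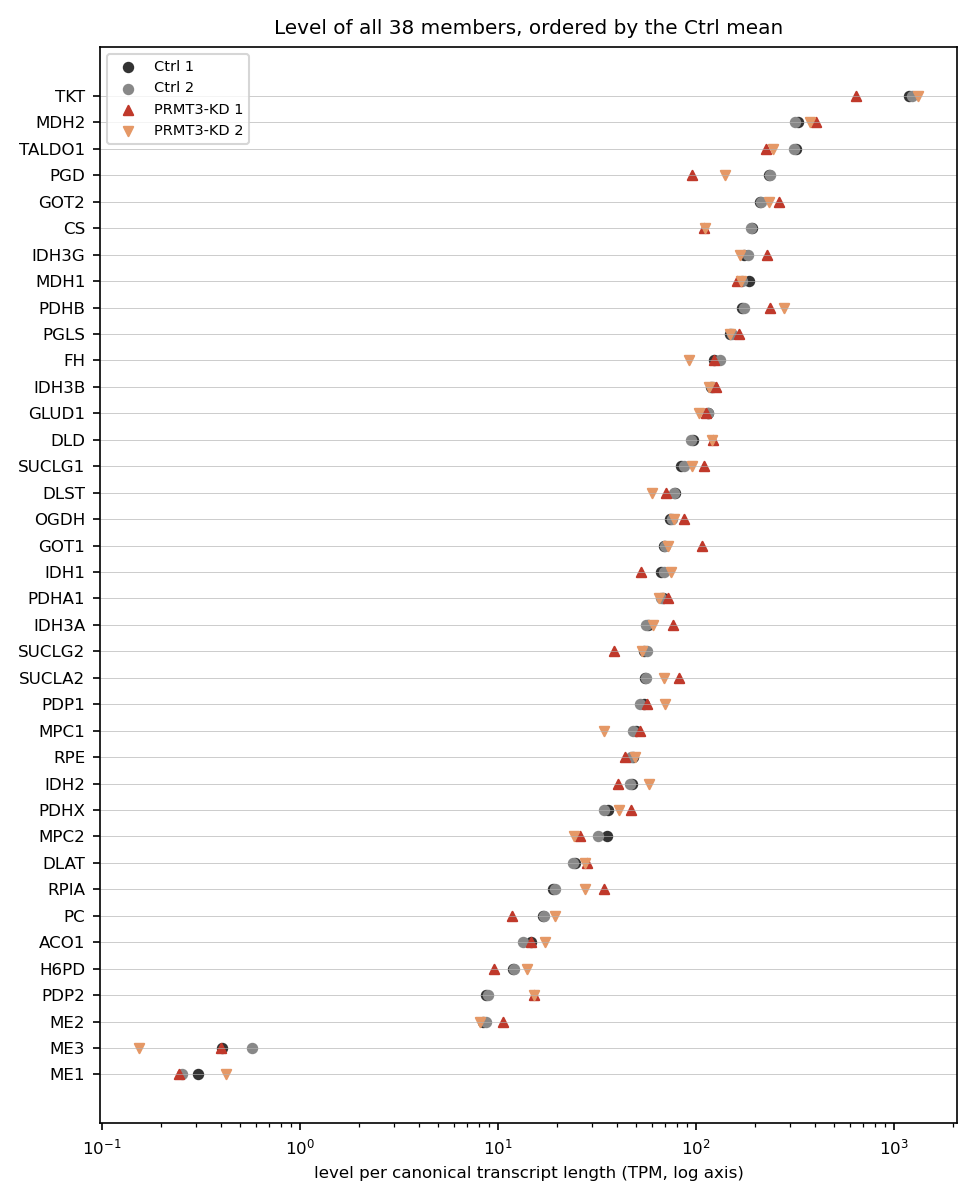
Level of all 38 members in TPM on a log axis (x axis), ordered by the Ctrl mean (y axis), with circles for Ctrl and triangles for PRMT3-KD libraries. TKT is highest at about 1213 TPM in Ctrl, and ME1 and ME3 stand apart at the bottom.

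Of 46 other genes of these pathways, 39 were tested. They include the remaining cycle enzymes, the regulatory kinases, transporters and side reactions. Of the 39, 3 passed the threshold, all lower (7.69%, against 5.97% of all genes called lower and 10.9% called either way). These were SDHD, a membrane anchor of succinate dehydrogenase (log2 fold change -0.92, adjusted p = 0.0172, edgeR), PDK1, a kinase that inactivates pyruvate dehydrogenase (-0.61, adjusted p = 0.0306), and PRPS2, which makes the nucleotide precursor PRPP from ribose 5-phosphate (-1.47, adjusted p = 0.014). The call of PDK1 was lost with the replicate block (adjusted p = 0.0523, edgeR), and its change was under 1.5-fold without PRMT3-KD library 2 (-0.56). SDHD was at 43.8 and 45.2 CPM in Ctrl and 22.5 and 24.6 CPM in PRMT3-KD libraries. PRPS2, downstream of RPIA, was at 72.9 and 67 CPM in Ctrl and 24.9 and 25.7 CPM in PRMT3-KD libraries.

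In a list of glycolytic enzymes set beside them, 5 of 18 tested genes passed the threshold as lower (27.8%, against 5.97% of all genes). As higher 0 passed, against 4.97% of all genes, and the median log2 fold change was -0.36. With edgeR, 2 of the 37 members were lower and 3 higher, around a median of 0.09. No test of the difference between these lists was made.

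The 7-base sequence CAGCTCA was looked up in 3′ UTRs because it was carried over from earlier results of these data, which gave no source for it. It may have been chosen from these same counts, so its share among the lower genes is treated as a restatement of that choice. Of the tested genes with a 3′ UTR of at least 50 bases, 17.5% carry it, against 33.9% of those called lower and 11.1% of those called higher, given here as a description with no test. It occurs in the canonical 3′ UTR of 4 of the 38 members (10.5%), against 16.9% of 14294 genes in the table with such a 3′ UTR. The sites of 3 of these 4 members, ACO1, H6PD and PDP2, are shown with their flanks so that members that carry them can be seen, in order of gene and position, with the 7 bases in capitals. Those of the other carrier are not shown here.
ACO1: tggtagaagcaCAGCTCAaattagcttaag
H6PD: cactgaggtgaCAGCTCAttagcggggaga
H6PD: gccgccgtcagCAGCTCAaggtggggtatg
PDP2: tgacacagtctCAGCTCActgcaacgtctg
They lie at chr9:32453325-32453354, chr1:9326139-9326168, chr1:9329933-9329962 and chr16:66923261-66923290 of GRCh37, all on the plus strand. PDP2, with 1 copy, was the only one of the 5 called members to carry the sequence, and it was higher. The lower genes CS and PGD have 0 copies.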

How the data were processed

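RNA was sequenced in 2 Ctrl and 2 PRMT3-KD libraries of U251 cells. Per the study's methods and the processing notes in the labels, reads were aligned to hg19 with TopHat, and the authors deposited unnormalized whole-number counts per gene made with Cufflinks, with DESeq2 named for their own comparison. Versions, the gene annotation and strand use are not given in the sources used here. Here 1 duplicate entry was removed, leaving 15575 genes. Counts were filtered with filterByExpr (minimum count 10, minimum total 15), given TMM factors and tested (glmQLFit, then glmQLFTest) in edgeR 4.0.16 (R 4.3.3), with adjustment over 13172 genes. Standard errors were derived from the fold change and the F statistic. Depth per library (24804250 to 29756313 counts) limits the precision of genes with few counts. Alternatives were DESeq2 1.42.0, limma-voom (limma 3.58.1), other scalings, filters and fold limits, the replicate number as a block, and each library left out. The tests were also run on simulated counts with equal spread in both groups. That check cannot speak for the unequal spread of the Ctrl and PRMT3-KD libraries here. TPM used canonical transcript lengths of GENCODE 44 on GRCh37, which holds 99.9% of the identifiers. All 38 members are named, and other pathway genes where they passed the threshold. Pseudogenes and exon overlaps of some further members are not named. Some items are not reported here. The members and lists were chosen with earlier results of these data known. Promoters are from RefSeq (GRCh38.p14).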

Additional observations from a re-analysis of the deposited data

How the results depend on the processing

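Over 12 alternatives for each member (11 for ME1), 406 of 443 values kept direction and call, 17 lost the call, 2 gained it and 18 changed sign. Most of the 443 values belong to uncalled members, which had no call to lose. All 17 losses fell on called members. PDHB lost its call under 6 of the 12 alternatives, RPIA under 4, PGD under 3, and CS and PDP2 under 2 each. For each of these genes the losses include the fits without either Ctrl library. At the 2-fold limit, which is not among these 12, 0 members were called. Under each of the 12 CS and PDP2 kept their calls, except on the loss of a Ctrl library, after which PRMT3 itself was not called either. The cause was not tested. A lone library of a group is assumed to vary like the other group.

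The labels number the libraries 1 and 2 in each group but do not say that a number marks a shared culture, and the log2 differences of the same-numbered libraries had a correlation across genes of 0.058. With the replicate block the members called lower stayed at 2, those called higher went to 2, and those at an adjusted p under 0.05 went from 8 to 5. PDHB had a log2 fold change of 0.58 and H6PD of -0.029 with this block.

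Members called lower went from 2 to 1 with DESeq2's size factors in edgeR and to 0 at 2-fold. Members called higher went from 3 to 1 with library totals only, to 5 with no fold limit and to 0 at 2-fold. Members at an adjusted p under 0.05 went to 5 with library totals only. The whole table went from 1441 calls to 2278 with no fold limit and 512 at 2-fold, and other pathway genes from 3 to 1 at 2-fold. With each library left out in turn, members called lower ranged from 0 to 3, called higher from 0 to 3, at an adjusted p under 0.05 from 0 to 29, genes of the whole table from 0 to 3066 and other pathway genes from 0 to 6. At an unadjusted p under 0.05 the members numbered 5 when either Ctrl library was left out.

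The sign changed for uncalled members near 0 or with PRMT3-KD libraries on opposite sides. Leaving out 1 library at a time, the log2 fold changes ranged from -0.47 to 0.077 for MPC1, -0.0051 to 0.085 for PDHA1, -0.54 to 0.23 for PC, -0.38 to 0.19 for IDH1, -0.23 to 0.34 for IDH2, -0.0097 to 0.051 for IDH3B, -0.063 to 0.32 for IDH3G, -0.20 to 0.63 for ME1, -0.034 to 0.29 for ME2, -0.13 to 0.097 for RPE, -0.93 to 0.17 for TKT and -0.34 to 0.27 for H6PD, with the ends set by the loss of a PRMT3-KD library. RPE was at 0.013 without Ctrl replicate 1. With library totals only IDH3B was at -0.0079 and H6PD at -0.039, and H6PD was at -0.021 with limma-voom and -0.0014 with the filter of 10 counts per library. The cause of these changes was not tested. With the length of all exons together, added after seeing the data, the mean Ctrl share was 42.8% for IDH1 in place of 59.1%, 23.8% for SUCLA2 in place of 49.95% and 89.5% for ME2 in place of 91.8%.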
